A study of Mus musculus with 15 samples.

Results

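The comparison described here asks, gene by gene, whether removal of a kidney had the same effect on gene expression in the mouse kidney on a high-fat diet as on a low-fat diet. It used all 15 arrays of the study, each taken as a separate mouse. For each gene the surgery effect on a diet is the mean normalised log2 signal of mice with 1 kidney minus that of sham mice, and the diet difference is the effect on the high-fat diet minus the effect on the low-fat diet. A value of 1 on this scale is a 2-fold change. Genes were taken up by detection on at least 3 arrays of any group, which left 16055 of the 20659 gene symbols on the array. A gene detected in 1 group alone could therefore pass, as Aim2 did.

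All mice were male and of the strain labelled C57/BJ. At 6 weeks of age they had either the left kidney removed (uninephrectomy, UNX) or a sham operation in which the kidney was handled and left in place, and kidneys were taken 20 weeks later. The low-fat groups ate control chow, labelled low fat, and were represented by 4 sham and 4 UNX arrays. The high-fat groups ate a high-fat diet and were represented by 3 sham and 4 UNX arrays, out of 6 mice stated for each of the 4 groups. No group carried a transgene or received a drug. In UNX mice the kidney studied was the remaining right one, and the side taken from sham mice is not given in the sources used here.

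When a kidney is lost, the remaining kidney takes on the filtration of both, enlarges mainly by growth of its tubule cells, and handles more salt and solute per nephron. Proximal tubules draw most of their energy from fatty acid oxidation, which the nuclear receptor PPAR-alpha controls, so a fat-rich diet and nephron loss meet in the same cells. The kidney also keeps a circadian clock, carries a sex-specific program in its proximal tubules, and lies in fat whose markers can enter a whole-organ sample.

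Samples of whole kidney were dominated by kidney genes: the proximal tubule markers Kap, Slc34a1 and Lrp2 stood at the 100th, 99.7th and 98.8th percentile of signal and the loop marker Umod at the 99.6th, and genes of neighbouring tissues were also detected: 10 of 15 adrenal and 9 of 15 skeletal muscle genes passed the filter, though not the adrenal Cyp11b1 or the muscle Ckm. Between 60.5% and 73.4% of spots on an array were well above background. Before scaling, the 75th percentile of signal was lowest on high-fat sham 1 (700) and highest on high-fat sham 3 (3433). On the other arrays it ran from 1069 to 2019. The slides bear on every result. High-fat sham and UNX arrays shared slides 1 and 2, whereas all low-fat sham arrays were on slide 3 and all low-fat UNX arrays on slide 4. Surgery on the low-fat diet and the difference between those slides therefore cannot be told apart, and the diet difference carries that slide difference with it. The arrays of the 2 diets were also on different slides and scanned on different days. A difference in level between the diets therefore cannot be told apart from slide and scan day. Effects on the high-fat diet are given for slide 1 (1 sham, 2 UNX arrays) and slide 2 (2 sham, 2 UNX arrays) where they matter. Because each sample is a whole organ, fewer cells of a type and less RNA per cell cannot be told apart.

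Surgery effects on the 2 diets were weakly alike across the transcriptome. Of 16055 genes, 60.9% had the same sign on both diets: 33.9% were higher after UNX on both and 27% lower on both. A further 20.8% were lower on the low-fat and higher on the high-fat diet, and 18.3% were the reverse. Across these genes the effects had a Pearson correlation of 0.25 and a Spearman correlation of 0.30, which describe the genes of 15 shared arrays and carry no p-value. Among the 13533 genes well above background on all 15 arrays both correlations were 0.33. Within the high-fat diet itself the likeness was lower, and most genes did not keep their sign from slide 1 to slide 2. Effects measured on slide 1, which holds 1 sham array, and on slide 2 share no array. They had the same sign for 40.7% of genes. The effects of slides 1 and 2 had the sign of the low-fat effect for 57.7% and 55.5% of genes.

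**Figure D1:**
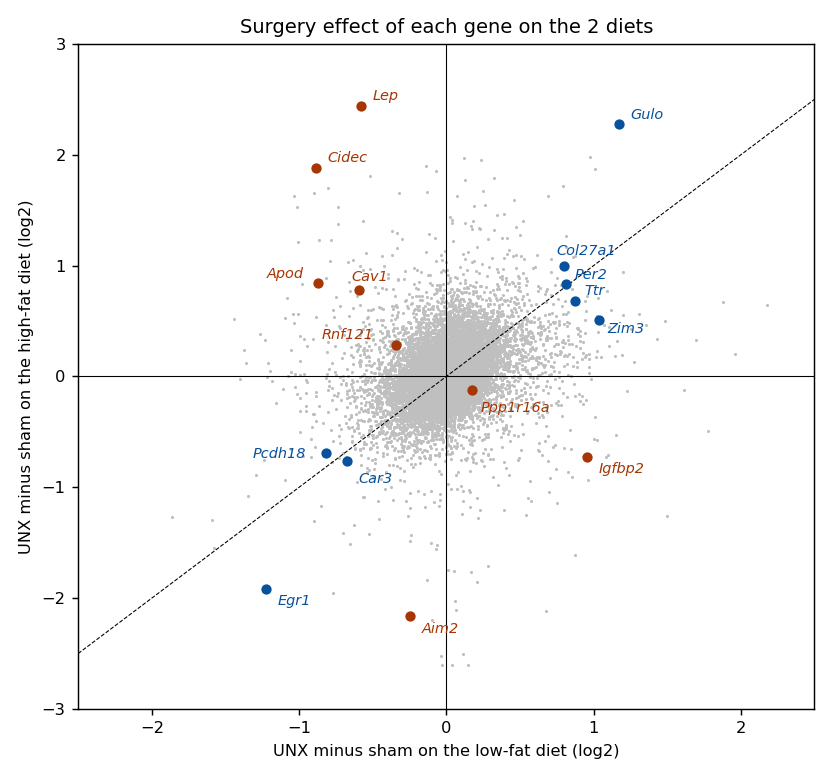
Surgery effect of each of 16055 genes on the low-fat diet (horizontal axis) and on the high-fat diet (vertical axis), as UNX minus sham in log2 units; the dashed line marks equal effects. Genes named in blue lie in the quadrants of like sign, among them Zim3, Per2 and Col27a1 above and Car3 below, and genes named in red lie in the opposite quadrants or, as Aim2, far from the line. Aim2 was not detected on the low-fat arrays and Lep on 1 of 8 of them, so their horizontal positions rest on undetected signals.

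No gene passed the test of the diet difference. With limma on all 15 arrays, 0 of 16055 genes (0%) reached a Benjamini-Hochberg adjusted p under 0.05, and the lowest adjusted p was 1.00. At an unadjusted p under 0.05 there were 219 genes (1.36%), a smaller share than the 0.05 that chance alone would mark. Of these, 158 (0.984%) had a higher and 61 (0.38%) a lower effect on the high-fat diet. That split moved with the scaling of the arrays: 129 of 243 genes were higher after quantile normalisation and 131 of 240 after cyclic loess. It also moved with single arrays, to 479 of 898 without high-fat sham 1 and 313 of 410 without high-fat sham 2. The median standard error of a diet difference was 0.27 and the median half-width of its 95% interval 0.59. For 71.7% of genes (11517) the whole interval lay within 1 log2 unit of 0, and for the rest it reached 2-fold or more. These intervals rest on the spread of arrays within groups and leave out the difference between slides 3 and 4. They therefore do not bound a diet difference apart from slide for any gene. With slide as a random block the 219 genes became 28.

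The mean of both surgery effects was tested next. A gene can pass this test through a large effect on 1 diet, so passing does not by itself make a response shared. The mean also includes the low-fat effect, which cannot be told apart from the difference between slides 3 and 4. Exactly 2 genes passed (0.0125%), Zim3, which rose, and Car3, which fell, while 1036 genes (6.45%) had an unadjusted p under 0.05. On the low-fat diet alone Zim3 was the 1 gene that passed (0.00623%; 519 genes, 3.23%, at unadjusted p under 0.05). On the high-fat diet alone 0 passed (747 genes, 4.65%, at unadjusted p under 0.05). The unadjusted shares of the single diets were below the 0.05 that chance alone would mark, and that of the mean effect was above it. As a description without a test, UNX and sham arrays did not overlap on either diet, with the same sign, for 41 of the 16012 genes with a value on every array (0.256%): 30 were higher (0.187%) and 11 lower (0.0687%). For comparison, arrays did not overlap for 4.56% of genes on the low-fat diet and 2.93% on the high-fat diet. The count of 41 grew when an array was left out, since fewer arrays then have to be apart. It ran from 46 to 105, and passed 1.5 times its value without low-fat sham 3 (65) or 4 (80), low-fat UNX 2 (73) or 3 (64), high-fat sham 1 (105), 2 (89) or 3 (71), or high-fat UNX 1 (66) or 3 (74).

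Zim3, a zinc-finger protein gene, passed for the mean effect and was higher after UNX on each diet. It measured -4.95, -5.14, -5.43 and -5.27 in low-fat sham mice, -4.22, -4.25, -4.22 and -3.95 in low-fat UNX mice, -4.47, -4.26 and -4.51 in high-fat sham mice, and -3.95, -3.73, -3.89 and -4.02 in high-fat UNX mice. Every UNX array lay above every sham array of its diet. The mean effect was 0.77 ± 0.09 (SE; adjusted p = 0.0144), a 1.71-fold rise. The effect was 1.03 on the low-fat and 0.51 on the high-fat diet, where slides 1 and 2 gave 0.63 and 0.43. That diet difference of -0.52 ± 0.19 (SE) had an unadjusted p of 0.0147 and did not pass. Zim3 was a dim gene, well above background on 3 of 4 low-fat sham arrays and on every array of the other groups. Its mean effect no longer passed without low-fat sham 2 or 4, low-fat UNX 3 or 4, or high-fat sham 3, with adjusted p-values between 0.0510 and 0.0692, nor when slide entered as a random block (0.747) or the replicate number as a block (0.0566), with a trended robust prior (0.103), or with normexp background correction, where it was 0.40.

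Car3 encodes carbonic anhydrase 3, abundant in fat and muscle cells, and fell on both diets. Its signal was 3.41, 3.36, 3.33 and 3.72 in low-fat sham and 2.95, 2.67, 2.76 and 2.73 in low-fat UNX mice. In high-fat mice it was 1.95, 1.73 and 1.75 after sham surgery and 0.86, 1.13 and 1.14 after UNX, with the value of UNX array 2 dropped as an outlier spot. All UNX arrays with a value lay below all sham arrays of their diet. The effects of -0.68 and -0.77 differed by -0.09 ± 0.19 (SE; 95% interval -0.50 to 0.32), and the mean effect of -0.72 ± 0.10 (SE) was a 1.65-fold fall (adjusted p = 0.0347). Over the 17 listed adipocyte markers, of which Car3 is one, the median effect was -0.34 on the low-fat and 0.46 on the high-fat diet. The part of fat cells in the Car3 result was not tested. The call depended on single arrays and on the processing. The adjusted p exceeded 0.05 without any 1 of 13 arrays, all but low-fat UNX 1 and high-fat UNX 2, and reached 0.152 at most. It was 0.889 with slide as a random block, 0.0616 with the replicate number as a block, 0.846 with normexp and 0.0782 with no filter on dim genes.

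Among genes that did not pass, several had nearly equal effects on both diets and UNX arrays apart from sham arrays on each. Per2, a repressor of the circadian clock, measured -2.34, -2.90, -2.75 and -1.98 in low-fat sham mice and -1.39, -1.43, -1.95 and -1.94 in low-fat UNX mice. In high-fat mice it measured -2.08, -2.31 and -2.33 after sham surgery and -1.46, -0.91, -1.57 and -1.71 after UNX. No UNX array was as low as any sham array of its diet, although low-fat UNX 3 and 4 came close to low-fat sham 4. The effects were 0.81 and 0.83, the diet difference was 0.02 ± 0.33 (SE), and the mean effect of 0.82 had an adjusted p of 0.209. Slides 1 and 2 gave 0.90 and 0.68.

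Col27a1, which encodes a fibrillar collagen, followed the same order. It measured -0.41, 0.01, -0.05 and -0.36 in low-fat sham and 0.86, 0.84, 0.44 and 0.24 in low-fat UNX mice, and 1.22, 0.84 and 0.64 in high-fat sham and 2.14, 2.33, 1.79 and 1.33 in high-fat UNX mice. The groups of each diet were apart, and high-fat sham mice lay about level with low-fat UNX mice. Its effects were 0.80 and 1.00 (mean 0.90, adjusted p = 0.164). Its adjusted p was 0.0454 with slide as a fixed block, 1.00 with slide as a random block and 0.0566 with the replicate number as a block. The fixed block adjusts for slide 1 against slide 2 only and leaves the low-fat effect as it was. Ttr, the carrier of thyroxine and retinol, measured 1.44, 2.48, 1.69 and 2.54 in low-fat sham, 2.81, 2.85, 3.02 and 2.97 in low-fat UNX, 3.47, 3.78 and 4.07 in high-fat sham, and 4.31, 4.45, 4.33 and 4.70 in high-fat UNX mice. Low-fat sham arrays spread widely while the other groups were tight, and no groups of a diet overlapped. Its effects of 0.88 and 0.68 averaged 0.78 (adjusted p = 0.209). Ttr is also made by liver. The mean signal over the 27 liver-made genes (those with a value on every array) overlapped between sham and UNX mice on both diets. The part of liver-made RNA in the Ttr result was not tested.

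Nkain1, whose product binds the sodium pump, was higher by 0.48 and 0.78, and its second probe gave 0.86 and 0.82. High-fat sham 3, at -0.68, lay far below the other high-fat sham arrays, at 0.25 and 0.05. Wee1, a kinase that holds cells before mitosis and a known clock output, was higher by 0.47 and 0.65 (mean 0.56, adjusted p = 0.209). Gulo, the enzyme of the last step of vitamin C synthesis, had the largest of these effects and overlapped on the low-fat diet. It measured -3.68, -3.43, -4.06 and -4.29 in low-fat sham and -4.24, -2.23, -2.51 and -1.81 in low-fat UNX mice, against -2.48, -3.65 and -3.14 in high-fat sham and -1.40, -0.75, 0.00 and -1.09 in high-fat UNX mice. Low-fat UNX 1 sat among the sham arrays while the other UNX arrays were above them. The mean effect of 1.72 had an adjusted p of 0.198, and without low-fat UNX 1 it was 1.98 and passed (adjusted p = 0.0245). The other genes named by lowest p on this side were Krtap10-4 (0.54 and 0.50), Lce1m (0.70 and 0.56) and 1700016H13Rik (0.63 and 0.38), with adjusted p-values of 0.150, 0.150 and 0.198. Caly (0.63 and 0.80) and Olfr362 (0.50 and 1.28) were further genes without overlap.

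None of the genes lower on both diets besides Car3 passed the test of the mean effect. Pdgfrb, the platelet-derived growth factor receptor of pericytes and mesangial cells, measured 1.00, 0.66, 0.83 and 0.59 in low-fat sham and -0.65, 0.38, 0.40 and 0.08 in low-fat UNX mice, and 0.68, 0.78 and 0.54 in high-fat sham and 0.29, -0.08, 0.17 and 0.38 in high-fat UNX mice. Sham arrays were alike on both diets and above all UNX arrays. The effects were -0.71 and -0.48 (mean -0.60, adjusted p = 0.301), with -0.57 and -0.38 on slides 1 and 2. Heyl, a target of Notch signalling, measured -1.52, -1.59, -1.19 and -1.89 against -2.79, -2.46, -2.08 and -2.22 on the low-fat diet, and -2.72, -2.71 and -2.40 against -2.92, -3.12, -3.12 and -2.97 on the high-fat diet. Groups did not overlap on either diet, and the gap was wider on the low-fat diet (-0.84) than on the high-fat diet (-0.42), a diet difference of 0.42 that did not pass. Pcdh18, a protocadherin, had effects of -0.82 and -0.69, with low-fat UNX 1 at -3.03 far below the other low-fat UNX arrays.

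Il5ra, the receptor of the eosinophil cytokine IL-5, was lower by 0.49 and 0.84 in UNX mice (diet difference -0.35 ± 0.26, SE; mean effect adjusted p = 0.206). Ada, which clears adenosine, had effects of -0.68 and -0.42. Ebf1, a transcription factor of B cells and of stromal cells, had -0.57 and -0.41, the chemokine gene Cxcl16 -0.39 and -0.25, and Nexn, which binds actin filaments, -0.47 and -0.25. Ccnjl (-0.58 and -0.80), Gas7 (-0.53 and -0.32), Fign (-0.41 and -0.62), Runx1t1 (-0.35 and -0.47) and N6amt1 (-0.43 and -0.69) were likewise lower on both. Over the 12 smooth muscle and pericyte markers the median effect was -0.28 and -0.09 on the low-fat and high-fat diet, and over the 16 lymphocyte markers -0.15 and -0.22; the part of these cells in the single-gene values was not tested.

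**Figure D2:**
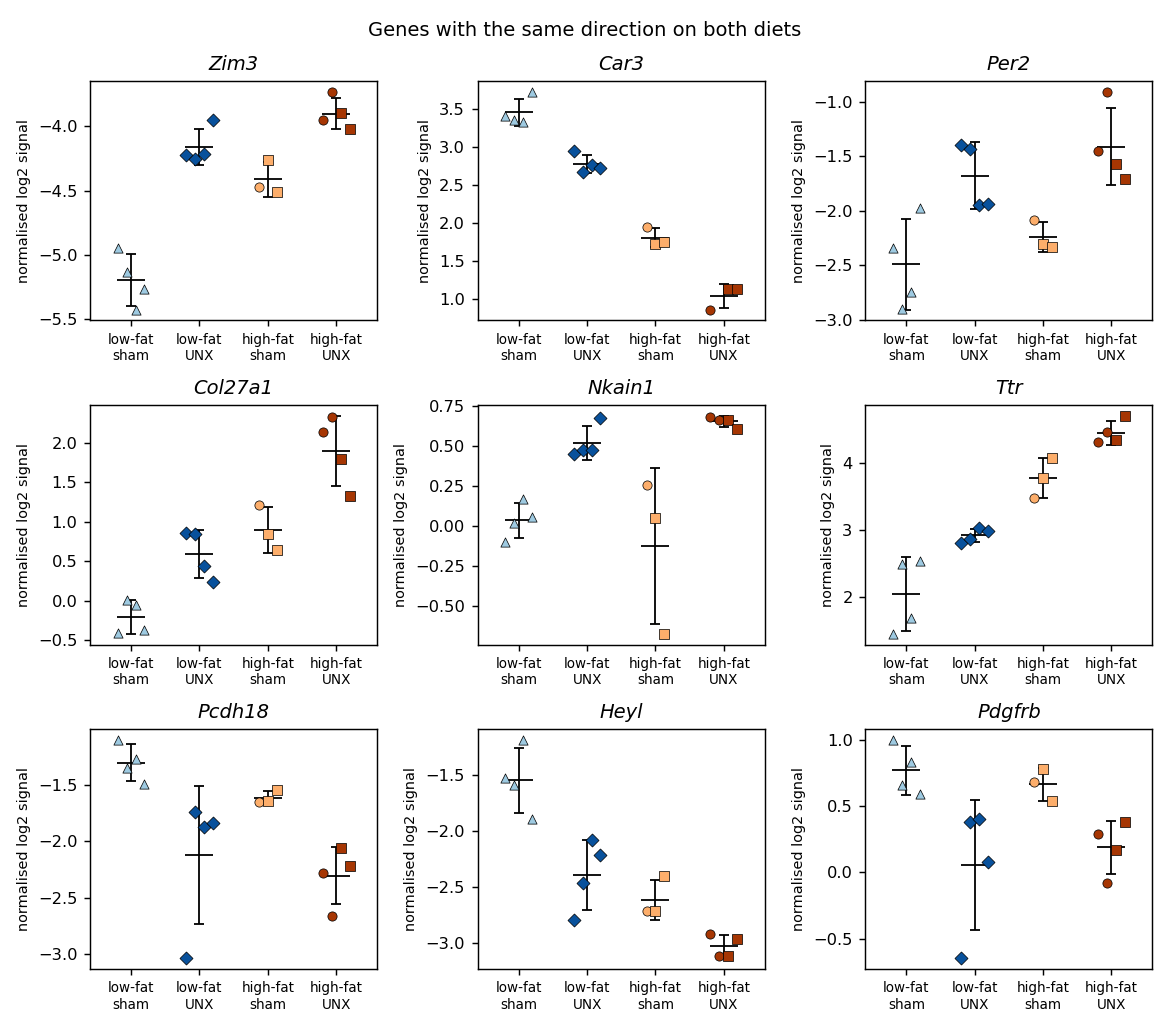
Normalised log2 signal of 9 genes with effects of like sign on both diets, 1 point per mouse in the 4 groups; bars give the mean ± SD, and the shape of a point gives its slide (circle 1, square 2, triangle 3, diamond 4). Zim3, Per2, Col27a1, Nkain1 and Ttr are higher and Car3, Pcdh18, Heyl and Pdgfrb lower in UNX mice on each diet, with no overlap between sham and UNX points of a diet.

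Clock genes gave a further group to set against Per2. The core clock runs on activators, among them Arntl, that bind E-box sequences (CACGTG) and switch on their own repressors, Per1, Per2, Per3 and Ciart, while a second arm acts through D-boxes (TTATGTAA). The promoters are shown for Per1, Ciart and Per3 because these repressors were measured beside Per2 and the table used holds them. They are RefSeq sequences of assembly GRCm38.p6, 250 bases upstream of the start, with each motif match in capitals. Per1 lies on the plus strand at chr11:69098699-69098948 (the first of 2 listed promoters), Ciart on the minus strand at chr3:95882229-95882478 and Per3 on the minus strand at chr4:151044666-151044915.
Per1: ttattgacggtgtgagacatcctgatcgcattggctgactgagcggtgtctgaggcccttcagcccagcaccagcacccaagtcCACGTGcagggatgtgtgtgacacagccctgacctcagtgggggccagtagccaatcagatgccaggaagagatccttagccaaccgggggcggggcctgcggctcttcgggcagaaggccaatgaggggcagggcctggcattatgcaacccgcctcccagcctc
Ciart: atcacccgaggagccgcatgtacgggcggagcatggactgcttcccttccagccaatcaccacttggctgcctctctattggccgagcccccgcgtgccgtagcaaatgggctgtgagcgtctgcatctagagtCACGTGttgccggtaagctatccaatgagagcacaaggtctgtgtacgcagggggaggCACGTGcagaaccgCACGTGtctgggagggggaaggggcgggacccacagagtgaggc
Per3: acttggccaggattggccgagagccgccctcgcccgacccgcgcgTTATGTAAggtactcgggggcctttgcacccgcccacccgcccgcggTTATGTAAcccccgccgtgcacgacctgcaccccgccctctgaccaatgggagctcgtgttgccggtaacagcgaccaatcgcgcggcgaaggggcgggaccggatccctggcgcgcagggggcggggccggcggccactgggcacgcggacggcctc
Read on both strands, the E-box letters occurred 1 time in the Per1 sequence, 166 bases before the start, and 3 times in that of Ciart. The D-box letters occurred 2 times in that of Per3. Among all 32851 promoters of this length, 6.02% held the E-box and 0.819% the D-box letters, and the motifs do not overlap each other. Of the 18 listed clock genes, 15 had a promoter in the table, 5 of them with an E-box (Bhlhe41, Ciart, Cry1, Per1 and Tef). Of the 18 listed immediate-early genes, 14 had a promoter, 4 of them with an E-box (Dusp1, Egr2, Klf4 and Klf6). A gene was counted if any of its promoters matched, whereas the 6.02% counts single promoters, so the shares are not directly comparable. The second listed Per1 promoter held no E-box match, and neither did any of the 2 sequences listed for Arntl. A match is a description of the letters in this window only.

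Per1 measured 1.61, 1.04, 0.89 and 1.47 in low-fat sham and 1.56, 2.46, 1.73 and 1.42 in low-fat UNX mice, and 2.11, 1.97 and 1.26 in high-fat sham and 2.78, 2.67, 2.64 and 2.34 in high-fat UNX mice. UNX arrays were above all sham arrays on the high-fat diet and overlapped with them on the low-fat diet. The effects were 0.54 and 0.83 (mean 0.68, adjusted p = 0.361). Ciart was higher by 0.42 and 1.14 and Per3 by 0.19 and 1.05, and Arntl, the activator, was lower by 0.25 and 1.06. High-fat sham 3 stood apart for Per3 and Arntl, at -5.28 for Per3 against -3.33 and -3.01 in the other high-fat sham mice, and at -0.85 for Arntl against -2.65 and -2.71. Per1 and Ciart were named after their values were seen. Over the 17 measured clock genes the median effect was 0.15 and 0.22, with 9 higher and 4 lower on both diets. Their mean signal overlapped on the low-fat diet. On the high-fat diet it did not, at -0.59 to -0.29 in sham and -0.25 to -0.09 in UNX mice. Without low-fat sham 3 the low-fat median was -0.04, and the high-fat median was 0.12 without high-fat sham 3 and 0.49 without high-fat sham 1. The hour at which kidneys were taken is not given in the sources used here.

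Opposite responses were rarer than like ones. UNX and sham arrays failed to overlap on both diets with opposite signs for 2 of 16012 genes (0.0125%), Rnf121 and Ppp1r16a. At an unadjusted p under 0.05 on each diet, 108 genes had the same sign (0.673%) and 4 the opposite sign (0.0249%): Apod, Nrarp, Olfr225 and Rnf121. Nrarp (-0.41 and 0.38), a Notch-regulated ankyrin repeat gene, was named after its values were seen. Of these, Olfr225 was not detected in low-fat UNX mice. All 4 were lower on the low-fat and higher on the high-fat diet. The counts of 108 and 4 became 16 and 0 with normexp, and 15 and 0 with slide as a random block. With single arrays left out they ran from 66 to 142 and from 1 to 9. The count of 2 became 7 without low-fat sham 4, 6 without low-fat UNX 2, 4 without low-fat UNX 3, 11, 10 and 7 without high-fat sham 1, 2 and 3, and 4 and 6 without high-fat UNX 1 and 2.

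Rnf121, a RING-finger ubiquitin ligase of the secretory pathway, measured 0.13, -0.23, -0.10 and -0.05 in low-fat sham and -0.49, -0.38, -0.51 and -0.25 in low-fat UNX mice. On the high-fat diet it measured -0.64, -0.54 and -0.74 after sham surgery and -0.38, -0.45, -0.12 and -0.50 after UNX. UNX mice were thus below sham mice on the first diet and above them on the second, by narrow gaps. The diet difference was 0.63 ± 0.18 (SE; limma unadjusted p = 0.00312, adjusted p = 1.00), with high-fat effects of 0.23 and 0.33 on slides 1 and 2. A second probe of the gene gave 0.11 and 0.31, higher on both diets. Ppp1r16a, a regulatory subunit of protein phosphatase 1, measured 3.78, 3.51, 3.68 and 3.74 against 3.86, 3.80, 3.92 and 3.81 on the low-fat diet, and 3.47, 3.44 and 3.45 against 3.41, 3.23, 3.39 and 3.31 on the high-fat diet. Its effects of 0.17 and -0.12 were smaller than the gap in level between the arrays of the 2 diets. Its second probe gave 0.16 and 0.26. For both genes the opposite signs therefore held for the brighter probe alone.

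Apod, a lipocalin that carries small lipids, measured -0.49, -1.88, -1.38 and -1.52 in low-fat sham and -2.74, -1.64, -2.25 and -2.12 in low-fat UNX mice, and -2.28, -2.65 and -2.38 in high-fat sham and -2.67, -1.03, -1.49 and -1.17 in high-fat UNX mice. The groups overlapped on both diets, by 1 UNX array each. The diet difference was 1.71 ± 0.53 (SE; 95% interval 0.59 to 2.84; limma unadjusted p = 0.00562). Cav1, the caveolin of endothelial and fat cells, measured -3.33, -3.72, -3.39 and -3.19 against -3.98, -3.77, -4.29 and -3.97 on the low-fat diet, and -4.18, -3.42 and -4.96 against -3.54, -2.73, -3.77 and -3.60 on the high-fat diet. UNX mice were below sham mice without overlap on the low-fat diet, and the high-fat groups overlapped through the wide spread of the sham mice. Its diet difference was 1.37 ± 0.42 (SE; limma unadjusted p = 0.00573). The adipocyte markers had medians of the same signs, -0.34 and 0.46, and their part in these values was not tested.

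Gpt2, the mitochondrial alanine transaminase, measured 0.98, 0.72, 1.02 and 1.02 in low-fat sham and 0.70, 0.52, 0.75 and 0.60 in low-fat UNX mice, and 1.08, 0.79 and 1.06 in high-fat sham and 1.39, 1.25, 0.98 and 1.31 in high-fat UNX mice. Low-fat sham 2 and high-fat UNX 3 were the arrays that fell within the range of the other group. Effects of -0.29 and 0.26 gave a diet difference of 0.55 ± 0.18 (SE), and slides 1 and 2 gave 0.24 and 0.22 on the high-fat diet. Lgals3, the gene of galectin-3, a lectin of macrophages and injured tubules, measured 3.36, 3.28, 3.25 and 3.17 against 2.83, 2.52, 2.65 and 2.81 on the low-fat diet, and 2.37, 2.25 and 2.10 against 2.12, 2.08, 2.99 and 2.60 on the high-fat diet. The low-fat groups were well apart, whereas the high-fat UNX mice split by slide, 2 below or within and 2 above the sham range. The effects were -0.56 and 0.20, and the high-fat effect was -0.27 on slide 1 and 0.62 on slide 2.

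The remaining genes with the lowest p-values for a higher effect on the high-fat diet had smaller or dimmer signals. Katnal1, related to the microtubule-severing enzyme katanin, had effects of -0.20 and 0.28, and its second probe gave -0.20 and 0.31. Klhl30 had effects of -0.36 and 0.47, and the olfactory receptor gene Olfr738 -0.11 and 0.84. Olfr225, another olfactory receptor, was well above background on none of the low-fat UNX arrays. It was at least 1.20-fold lower there than in low-fat sham mice, against a high-fat effect of 0.57, so that its diet difference is not given. Here "at least" compares the mean of the brighter group with the lowest signal that counts as detected on the dimmer arrays.

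Among genes with a lower effect on the high-fat diet, Qpct, a glutaminyl cyclase that caps peptide hormones and chemokines, had effects of 0.34 and -0.23 (diet difference -0.57 ± 0.19, SE; limma unadjusted p = 0.00946). Cyp4f15, a fatty acid omega-hydroxylase, had 0.57 and -0.27, with a high-fat effect of -0.16 and -0.38 on slides 1 and 2. For both, low-fat sham mice were the lowest group on average and the other groups lay close together. Further genes had a larger positive effect on the low-fat than on the high-fat diet. Padi1, a peptidylarginine deiminase, measured -2.84, -2.97, -2.91 and -2.90 in low-fat sham and -2.10, -2.29, -1.93 and -2.07 in low-fat UNX mice, a gap wider than the spread within either group. On the high-fat diet it measured -1.85, -1.73 and -1.93 after sham surgery and -1.63, -1.73, -2.01 and -1.19 after UNX, overlapping. The effects of 0.81 and 0.19 differed by -0.61 ± 0.22 (SE; limma unadjusted p = 0.0145). Mcoln3, an endolysosomal cation channel (0.66 and 0.11), and Fbxo33, an F-box protein (0.41 and -0.04), also had the larger value on the low-fat diet.

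Other genes had a near-zero low-fat effect and a lower value in high-fat UNX mice. Nap1l3, of the nucleosome assembly protein family, had effects of 0.09 and -0.53 (diet difference -0.62 ± 0.18, SE; limma unadjusted p = 0.00457), Serinc2, a serine incorporator protein, 0.18 and -0.54, and the centriole gene Cenpj 0.01 and -0.49. The other probes of Serinc2 gave 0.08 and -0.61, and 0.17 and -0.12. High-fat sham 3 was the highest array of all for Nap1l3 (-2.71) and Cenpj (-0.50).

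Aim2, a sensor of cytosolic DNA that triggers inflammasomes, was well above background on the 3 high-fat sham arrays and on no other array. It passed the detection filter through those arrays alone, so its detection there is not a separate finding. It measured -5.76, -6.37 and -6.09 in high-fat sham mice and -8.61, -8.34, -8.10 and -7.91 in high-fat UNX mice, and from -8.16 to -6.63 in low-fat mice, where the values lie below background and carry no order. It was at least 1.25-fold lower in UNX than in sham mice on the high-fat diet. With no detected level in either low-fat group, no diet difference is given for it. The 1 call that limma made for any gene's diet difference when single arrays were left out was for Aim2, without low-fat sham 1, and it rests on those undetected values.

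**Figure D3:**
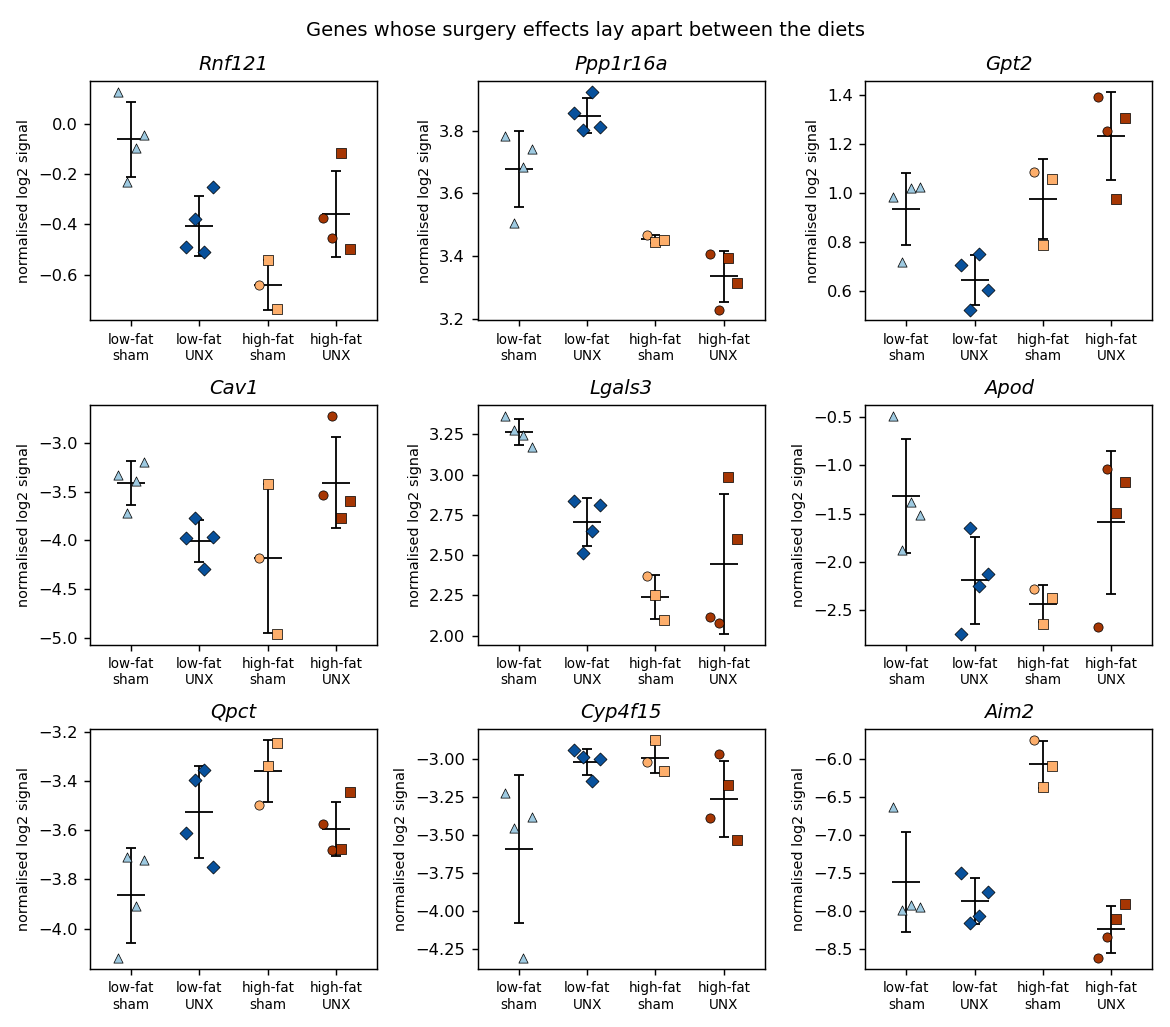
Normalised log2 signal of 9 genes with effects that differ in sign or size between the diets, 1 point per mouse in the 4 groups; bars give the mean ± SD and the shape of a point its slide (circle 1, square 2, triangle 3, diamond 4). The low-fat UNX points lie below the low-fat sham points without overlap for Rnf121, Cav1 and Lgals3. For these genes the high-fat UNX mean lies above the high-fat sham mean. Aim2 is detected in high-fat sham mice only and passed the detection filter through them.

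Gene lists are described by their counts and medians, beside those of all 16055 genes. Over all genes the median effect was 0.01 on the low-fat and 0.02 on the high-fat diet, 52.2% and 54.7% of genes were higher and 47.8% and 45.3% lower after UNX, and the diet difference was positive for 53.2% and negative for 46.8%. No list member passed the test of the diet difference, and Car3 was the 1 member that passed for the mean effect. The lists were drawn up with earlier results of these data known.

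Fatty acid oxidation and respiratory chain genes had medians of the same sign on both diets, and the 17 fatty acid synthesis genes had medians of 0.02 and 0.14, with 9 and 13 higher. Of 34 genes of fatty acid oxidation and PPAR-alpha targets, 31 were higher on the low-fat diet and 33 on the high-fat diet, at medians of 0.14 and 0.31. Both effects were positive for 30, against 33.9% of all genes, and the diet difference was positive for 24. The median on the high-fat diet was 0.17 on slide 1 and 0.47 on slide 2. No member passed, and 6 had an unadjusted p under 0.05 for the mean effect, against 6.45% of all genes. Examples are Slc25a20, the mitochondrial acylcarnitine carrier (0.29 and 0.65), Cpt1a, the gate of fatty acid entry (0.25 and 0.34), and Ppara itself (0.15 and 0.36). The other probes of Ppara gave 0.10 and 0.05, and -0.06 and 0.18.

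Within this list the mean signal of the genes with a value on every array overlapped on the low-fat diet. It ran from 2.90 to 3.56 in low-fat sham and from 3.30 to 3.71 in low-fat UNX mice. On the high-fat diet it ran from 2.90 to 3.26 in sham and from 3.42 to 3.47 in UNX mice, without overlap. The mean of the clock list did not overlap on the high-fat diet either. In the fatty acid oxidation list, single members differed in their effects. The widest contrasts between diets were in Cyp4a14, a PPAR-alpha-driven omega-hydroxylase, and Angptl4, an inhibitor of lipoprotein lipase. Cyp4a14 measured 0.71, 2.81, 3.65 and 1.91 in low-fat sham and 2.19, 1.08, 1.24 and 4.02 in low-fat UNX mice, and 2.84, 1.82 and 1.46 in high-fat sham and 3.98, 3.55, 3.62 and 3.67 in high-fat UNX mice. Values scattered over the same range in both low-fat groups, while all high-fat UNX arrays were above the high-fat sham arrays. Its effects of -0.13 and 1.67 gave a diet difference of 1.80 ± 0.94 (SE; limma unadjusted p = 0.0771). Those of Angptl4 were -0.13 and 0.55 (limma unadjusted p = 0.0767).

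Of 24 respiratory chain genes, 23 were higher on the low-fat and 22 on the high-fat diet (medians 0.13 and 0.16), 21 on both. The high-fat median came from slide 2 (0.39) and not from slide 1 (-0.14). After quantile normalisation it was 0.02, and after cyclic loess 0.06. Of the tubule markers, 26 proximal tubule genes had medians of 0.13 and 0.11, with -0.18 and 0.38 on slides 1 and 2 and a high-fat median of -0.01 after quantile normalisation. The 27 genes of the loop, distal tubule and collecting duct had medians of 0.16 and 0.21, with -0.02 and 0.39 on those slides. Slc12a3, the sodium chloride cotransporter of the distal convoluted tubule, had effects of 0.34 and 0.83 (mean 0.59, adjusted p = 0.388), and slides 1 and 2 gave 0.51 and 0.87. Podocyte markers were lower on both diets at similar medians, -0.13 and -0.16, with 12 of 16 lower on both against 27% of all genes.

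Immediate-early genes, the first to respond to growth signals and to handling of tissue, were also lower on both diets, but not on both slides. Of 17 measured, 14 were lower on the low-fat and 11 on the high-fat diet (medians -0.26 and -0.36), and 11 on both. The high-fat median was 0.07 on slide 1 and -0.71 on slide 2. With normexp background correction the medians shrank to -0.09 and -0.07. Egr1 measured -0.77, -0.29, -2.46 and 0.30 in low-fat sham and -2.88, -1.68, -0.90 and -2.65 in low-fat UNX mice, and -1.22, -0.68 and 0.50 in high-fat sham and -2.00, -2.99, -2.03 and -2.51 in high-fat UNX mice. The low-fat groups overlapped and the high-fat groups did not. Its effects were -1.23 and -1.92 and those of Fos -1.58 and -1.55. Btg2, whose promoter holds the cyclic AMP response element letters TGACGTCA (1.55% of all promoters do), had -0.26 and -0.51.

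**Figure D4:**
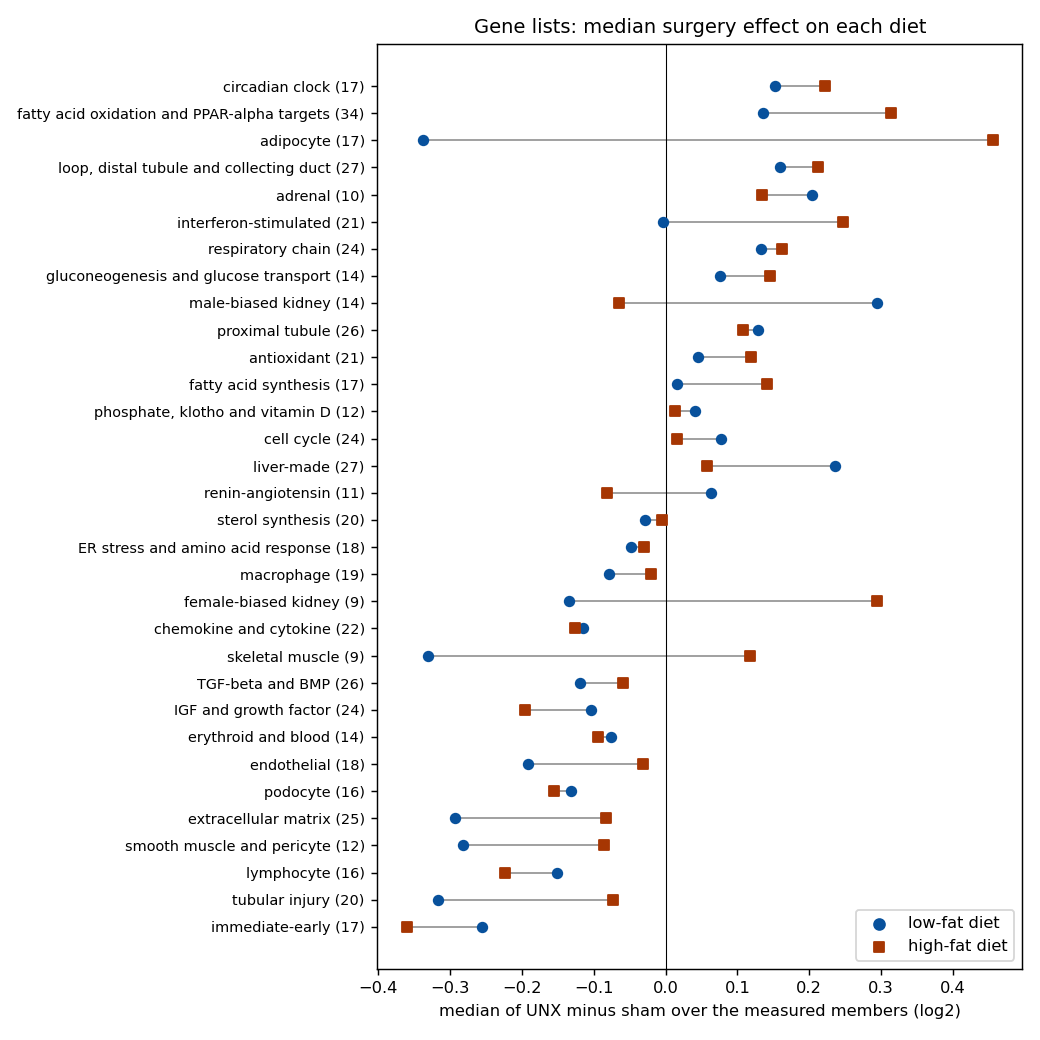
Median surgery effect (UNX minus sham, log2) of each gene list on the low-fat and on the high-fat diet. Fatty acid oxidation (0.14 and 0.31) and the immediate-early genes (-0.26 and -0.36) have medians of like sign, and the adipocyte genes (-0.34 and 0.46) have medians of opposite sign; several high-fat medians near 0 change sign between slides 1 and 2, such as that of the male-biased kidney genes (0.11 and -0.18).

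Matrix, vessel and injury lists had negative medians on the low-fat diet and medians nearer 0 on the high-fat diet, though not on each of its slides. Of 25 extracellular matrix genes, 23 were lower on the low-fat diet (median -0.29) and 17 on the high-fat diet (median -0.08). On slides 1 and 2 the high-fat median of the matrix genes was -0.25 and -0.14, and without high-fat sham 1 it was 0.02. The diet difference was positive for 21 of them (median 0.25, against 0.02 over all genes). Timp1, an inhibitor of matrix proteases, measured -0.40, -0.87, -1.05 and -1.28 in low-fat sham and -2.87, -2.12, -1.10 and -1.73 in low-fat UNX mice, and -1.99, -2.72 and -3.34 in high-fat sham and -2.46, -3.32, -2.42 and -2.35 in high-fat UNX mice. Low-fat sham mice were the highest group, and the high-fat groups overlapped throughout. Its effects were -1.05 and 0.04 (diet difference 1.10 ± 0.54, SE; limma unadjusted p = 0.0620), and the high-fat effect was -0.90 on slide 1 and 0.64 on slide 2.

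Sparc, a collagen-binding matrix protein, had effects of -0.29 and 0.24, and its second probe -0.36 and 0.00. The collagens Col1a1 (-0.63 and -0.19) and Col3a1 (-0.57 and -0.12) were lower on both. Of 20 tubular injury genes, 17 and 11 were lower on the low-fat and high-fat diet (medians -0.32 and -0.07), and of 18 endothelial genes 17 and 10 (medians -0.19 and -0.03). The high-fat median was -0.13 and 0.04 on slides 1 and 2 for the injury genes and -0.04 and -0.20 for the endothelial genes, and the latter is as low as on the low-fat diet. Flt1, a vascular endothelial growth factor receptor, had effects of -0.30 and 0.08. Of 12 smooth muscle and pericyte genes, 10 and 8 were lower, and the diet difference was positive for 11. On the high-fat diet the smooth muscle median was 0.07 on slide 1 and -0.41 on slide 2, so that the list had a like effect on both diets on 1 of the slides. Leaving out single arrays moved the median diet difference of the matrix genes between 0.08 and 0.36 and that of the endothelial genes between 0.07 and 0.23.

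Adipocyte markers had the widest opposite shift of any list. Of 17 genes, 13 were lower on the low-fat and 14 higher on the high-fat diet, at medians of -0.34 and 0.46, and 11 combined both, against 20.8% of all genes. With single arrays left out the low-fat median ran from -0.45 to -0.04 (the latter without low-fat UNX 3) and the high-fat median from 0.14 (without high-fat UNX 2) to 0.75 (without high-fat UNX 4). Cidec, a lipid droplet protein of fat cells, measured -0.90, 0.05, 0.26 and 1.71 in low-fat sham and 0.31, 0.50, -2.74 and -0.49 in low-fat UNX mice, and -3.64, -2.80 and -0.69 in high-fat sham and -2.42, 0.40, -0.10 and 0.16 in high-fat UNX mice. The groups overlapped on both diets, with low-fat UNX 3 and high-fat sham 1 and 2 at the bottom. Its diet difference was 2.77 ± 1.24 (SE; limma unadjusted p = 0.0426), and its second probe gave -0.69 and 2.21.

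Plin1, which coats lipid droplets, had effects of -0.52 and 1.81, and Adipoq, the gene of adiponectin, -1.01 and 1.53. Lep, the gene of leptin, was detected on 1 of 8 low-fat arrays, so that its diet difference is not given. The mean signal of the listed genes with a value on every array, which leaves out Car3, spread more within groups than between them. It ran from -1.03 to 0.18 in low-fat sham, from -1.85 to -0.07 in low-fat UNX, from -2.14 to -0.41 in high-fat sham and from -1.27 to 0.25 in high-fat UNX mice. The high-fat median effect was 1.11 on slide 1 and 0.20 on slide 2. Hp, the gene of haptoglobin, made by liver and fat, and Orm1, an acute-phase protein gene, had effects of 0.13 and 1.77, and of 0.46 and 1.59, the last with Orm1 detected on 1 of 3 high-fat sham arrays.

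**Figure D5:**
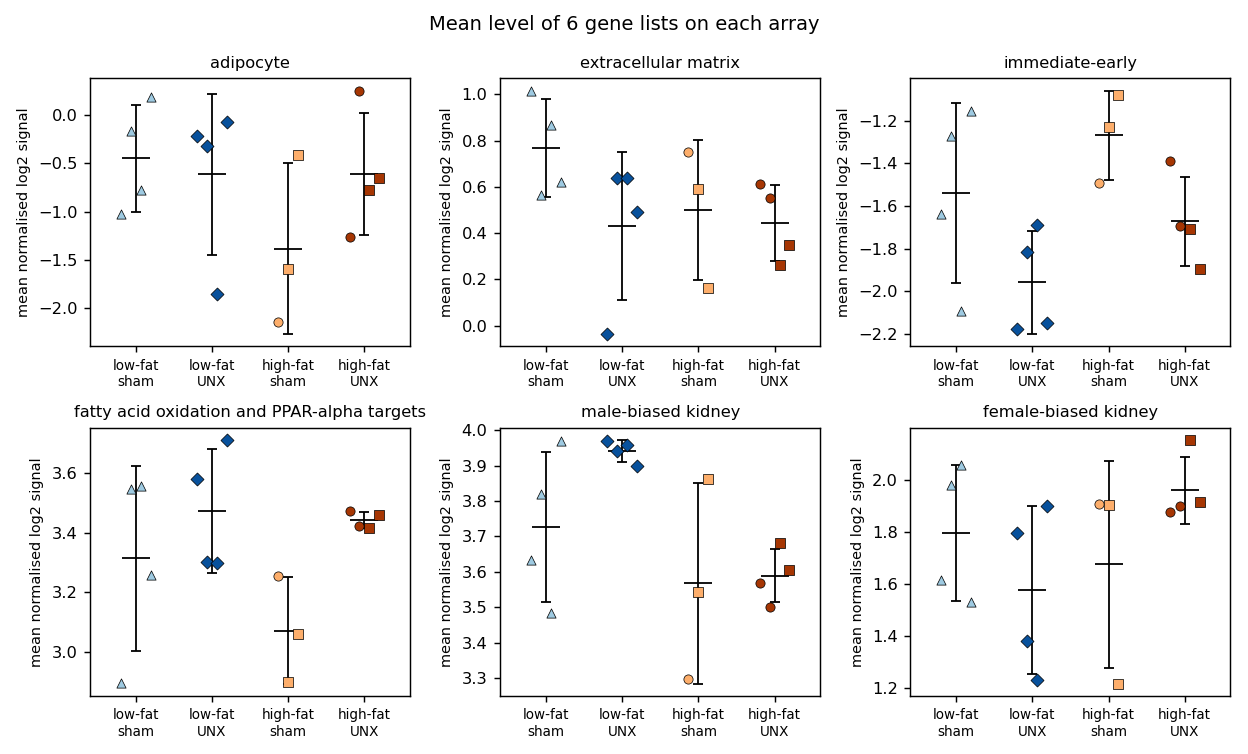
Mean normalised log2 signal over the genes of 6 lists on each of the 15 arrays, grouped by diet and surgery, with bars for the mean ± SD and point shapes for the slide (circle 1, square 2, triangle 3, diamond 4). The means cover genes with a value on every array, so that of the adipocyte list leaves out Car3. Fatty acid oxidation genes separate high-fat sham (2.90 to 3.26) from high-fat UNX (3.42 to 3.47), and adipocyte markers spread over more than 1 log2 unit within every group.

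Sex-biased kidney genes had medians of opposite sign over both slides, but not on slide 1. Of 14 genes listed as higher in male kidney, 12 were higher on the low-fat diet (median 0.29) and 6 on the high-fat diet (median -0.06). The diet difference was negative for 11. The high-fat median of these genes was 0.11 on slide 1 and -0.18 on slide 2, and it ran from -0.24 to 0.14 with single arrays left out, turning positive without high-fat sham 3. The 9 measured genes listed as higher in female kidney had medians of -0.13 and 0.29, and the diet difference was positive for 7. They include Prlr, which is on both sex lists, and Cyp4a14, which is also on the PPAR-alpha target list. Slc7a13, a male-biased amino acid transporter of the proximal tubule, had effects of 0.33 and -0.24 (limma unadjusted p = 0.0267). Slc7a12, its female-biased relative, measured 0.14, 0.80, 1.40 and -0.13 in low-fat sham and 0.31, -0.09, -1.63 and -0.76 in low-fat UNX mice, and 1.31, 1.63 and -0.70 in high-fat sham and 0.81, 1.46, 1.51 and 1.29 in high-fat UNX mice.

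High-fat sham 3 was the array that lay apart there, and the other high-fat sham arrays were level with the UNX arrays. The same array stood apart for Prlr, the prolactin receptor, which both sex lists hold, at -0.85 against 1.88 and 1.85. Prlr had effects of -0.72 and 0.63. On slide 1, which does not hold that array, the high-fat effect was -0.17 for Slc7a12 and -0.30 for Prlr, and the median of the female-biased list was -0.21 against 0.69 on slide 2. Without high-fat sham 3 the high-fat median of the female-biased list was 0.05, and without low-fat UNX 2 its low-fat median was 0.03.

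Immune lists gave no common pattern. The 21 interferon-stimulated genes had medians of 0.00 and 0.25, and their high-fat median was 0.55 on slide 1 and -0.06 on slide 2. High-fat UNX 1 had a mean of 0.50 over this list, whereas all other arrays were at or below -0.53. Without that array the high-fat median of the list was -0.08. Medians were -0.08 and -0.02 for 19 macrophage markers and -0.15 and -0.22 for 16 lymphocyte markers, and with normexp the high-fat median of the latter was 0.13. Ccl8, a chemokine that attracts monocytes, measured -0.97, -2.25, -2.23 and -1.71 in low-fat sham and -2.71, -1.56, -2.17 and -3.38 in low-fat UNX mice, and -2.31, -2.42 and -1.99 in high-fat sham and -1.71, -1.13, -1.97 and -0.75 in high-fat UNX mice. The high-fat groups were apart, by a narrow gap, and the low-fat groups overlapped. Its effects of -0.66 and 0.85 gave a diet difference of 1.51 ± 0.56 (SE; limma unadjusted p = 0.0175), with 0.88 and 0.85 on slides 1 and 2.

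Some large opposite values were not stable within a diet. Igfbp2, an insulin-like growth factor binding protein, had effects of 0.95 and -0.72, but its high-fat effect was 2.37 on slide 1 and -3.06 on slide 2. Sterol synthesis genes (20 genes, -0.03 and -0.01) and genes of phosphate, klotho and vitamin D handling (12 genes, 0.04 and 0.01) had medians near 0 on both diets, and cell cycle genes had 0.08 and 0.02 (24 genes).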

How the data were processed

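Each array (1-colour Agilent, design 026655 per the file headers) received Cy3-labelled cDNA from 100 ng of kidney RNA. The deposited intensity (signal) values come from Feature Extraction 10.7.3.1, per the file headers; the submitters' processing notes give 10.7. The deposited value table holds the same signals at 0.995 to 1.005 times the scanner values, so scale and direction are known and no centring was made. Column medians ran from 56.7 (high-fat sham 1) to 251 (high-fat sham 3), and from 91.6 to 161 on the other arrays. The deposited raw median intensities of spots and background served the normexp alternative, since the mean intensity it was planned on was not used here. RefSeq accessions of 27234 of 39429 probes matched a RefSeq gene table (GRCm38.p6), which served for names alone, and 12195 did not match.

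Control and outlier spots (74 to 273 per array) were dropped; no spot was saturated. The log2 processed signal minus each array's 75th percentile was averaged over spots of a probe. A probe needed a signal well above background on 3 arrays, and the brightest probe stood for a gene. A value was lacking on some array for 43 genes, and the list means per array leave these genes out. Groups were fitted with limma 3.58.1 (lmFit, eBayes; R 4.3.3) on all 15 arrays, two-sided, with Benjamini-Hochberg adjusted p under 0.05 as threshold over 16055 genes. The script was tested on simulated data. The number of arrays limits the precision. The labels give each array of a group its own replicate number, which was taken to mean a separate mouse.

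Named genes were those passing (up to 8 per direction by size), else the 8 lowest p per direction among genes detected on all 15 arrays plus the lowest p over all genes, up to 8 per pattern without overlap, 4 members per list by lowest p of the diet difference, and a fixed panel of kidney genes. The members, lists and panel were chosen with earlier results of these data known. Alternatives covered normalisation, background correction, the value table, dim probes, probe choice, slide and replicate blocks, spread and each array left out.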

Additional observations from a re-analysis of the deposited data

Results flagged for a closer look

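Single arrays lay apart from the other arrays of their group for 20 of 248 gene groups of 4 arrays and for 6 of 96 list groups, where chance marks about 1 in 20 groups; groups of 3 were not examined. Among genes described as alike, these were Zim3 (-3.95, low-fat UNX 4), Nkain1 (0.67, low-fat UNX 4), Pcdh18 (-3.03, low-fat UNX 1), Il5ra (-3.54, high-fat UNX 3), Krtap10-4 (-2.84, high-fat UNX 3), Lce1m (-4.36, low-fat UNX 2), N6amt1 (-0.74, low-fat sham 2), Caly (-2.29, high-fat UNX 3) and 1700016H13Rik (-3.45, low-fat UNX 2). Among genes with unlike effects they were Aim2 (-6.63, low-fat sham 1), Gpt2 (0.72, low-fat sham 2), Olfr738 (-4.20, low-fat UNX 2), Nap1l3 (-3.63, low-fat UNX 4) and Fbxo33 (-1.83, high-fat UNX 3). Among list members they were Timp1 (-3.32) and Btg2 (-1.24) on high-fat UNX 2, Ppara (4.09, low-fat sham 2), Plin1 (-5.32) and Adipoq (-3.35) on low-fat UNX 3, and Hp (2.29, low-fat UNX 4).

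Among list means, the sterol synthesis genes stood at 0.42 on high-fat UNX 2, the chemokine and cytokine genes at -1.30 on high-fat UNX 1, the endothelial genes at 0.49 on low-fat UNX 2, the female-biased kidney genes at 2.15 on high-fat UNX 3, the adipocyte genes at -1.85 on low-fat UNX 3 and the adrenal genes at -2.72 on low-fat sham 1. Low-fat UNX 3 was thus the lowest low-fat array for the adipocyte list and for Plin1 and Adipoq in it.

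Rnf121 (diet difference 0.63) and Ppp1r16a (-0.29) had every UNX array on opposite sides of the sham arrays on the 2 diets. By limma neither diet difference passed, with unadjusted p-values of 0.00312 and 0.0612.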

How the results depend on the processing

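No value that had passed a test changed sign under any alternative run. The diet difference gave 0 genes under each alternative fit and 0 to 1 (Aim2, on undetected signals) when each array was left out. Genes called for the mean effect numbered 0 with normexp and with slide as a random block (correlation 0.41). They numbered 1 with no filter on dim probes, 1 with the filter at all 15 arrays and 1 with a trended robust prior. With slide as a fixed block, which adjusts within the high-fat arrays only, they numbered 4. With each array left out they numbered 0 to 3. The low-fat count of 1 became 2 after quantile normalisation, 101 with array weights, 0 with normexp, the filter at all 15 arrays, the random block and the trended prior, and 0 to 1 with arrays left out (1 only without low-fat sham 1 or any high-fat array). The high-fat count of 0 became 1 (Aim2) with cyclic loess, and was 0 to 1 with arrays left out. The count alike without overlap was 9 with normexp, 27 with the filter at all 15 arrays and 46 to 105 with arrays left out. The opposite count was 1 with the percentile over detected probes, 0 with normexp, 4 with no filter, 0 with probes averaged, and 2 to 11 with arrays left out. The correlation of effects was 0.14 with no filter, 0.33 with the filter, 0.21 with array weights, and 0.19 to 0.28 with arrays left out. Causes were not tested.

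With the replicate number as a block, 0 genes passed for the diet difference, 0 for the mean effect and 0 on the low-fat diet, and the correlation was 0.22. Same-numbered arrays had correlations between -0.13 and -0.01 (low-fat) and between 0.12 and 0.43 (high-fat). The numbers were not taken as pairs in the main fit, although the high-fat correlations were all positive.

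Unadjusted calls for the diet difference numbered 219, and 57 with normexp, 28 with the random block, 390 with no filter, 493 with array weights and 532 with the fixed block. Aim2, Olfr225 and Lep are limited by signal near background.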

Other observations

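Probes without a gene name, left out above, were tested in the same way. Of 7161 such probes, 0 passed for the diet difference by limma (139 at an unadjusted p under 0.05) and 0 for the mean effect (493 at an unadjusted p under 0.05), with a lowest adjusted p of 0.193 for the mean effect.

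Other lists had medians as follows. The 24 genes of IGF and growth factor signalling had medians of -0.10 on the low-fat and -0.20 on the high-fat diet, with 13 lower on both. Of 18 genes of ER stress and the amino acid response, 10 were lower on both (medians -0.05 and -0.03). Of 14 genes of gluconeogenesis and glucose transport, 10 were higher on both (0.08 and 0.14). The 11 genes of the renin-angiotensin system had medians of 0.06 and -0.08, with 6 higher on the low-fat and lower on the high-fat diet, and medians of 0.00 and 0.02 within slides 1 and 2.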
